A study of Mus musculus with 6 samples.

Results

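The IL-6 family is described here through 10 genes, the whole of a list of mouse symbols matched to the gene IDs of the count table. They were the ligands Il6, Il11 and Lif, the receptor chains Il6ra, Il11ra1, Lifr, Osmr and Il6st, the transcription factor Stat3 and the feedback inhibitor Socs3. All 10 of the 10 symbols were found among the 27179 gene IDs of the table. They were matched by name with no filter on measured values, but the list was chosen with earlier results of these data known. RNA had been sequenced from osteoblasts, the bone-forming cells, of the calvaria (flat skull bones) of C57Bl/6J mouse pups aged 5 days. The labels put 3 libraries under the genotype Cdc73/Hrpt2 KO, a conditional knockout of the gene for parafibromin, and 3 under Wildtype, and the knockout libraries are titled Flox. Which exons the deletion removes is not stated. Per the labels' protocols, collagenase-released cells of both genotypes were sorted alike for a GFP transgene controlled by Osteocalcin-Cre, a recombinase driven by a promoter of mature osteoblasts. Which GFP reporter was used, and whether Wildtype pups carried the recombinase, is not stated, so how alike the sorted populations are is not known from the labels. The labels do not say whether a library came from 1 pup, a litter or a pool, so p-values measure the spread between these libraries, which may be technical.

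Cytokines of this family signal by bringing the shared receptor chain gp130, encoded by Il6st, together with a chain that recognises the ligand. IL-6 and IL-11 bind their own alpha chains, encoded by Il6ra and Il11ra1, and LIF and oncostatin M engage gp130 with the chains encoded by Lifr and Osmr. Janus kinases bound to these receptors phosphorylate STAT3, which enters the nucleus and induces Socs3, whose product binds gp130 and the kinases and damps the signal. In bone, osteoblasts and their precursors both make these ligands and carry the receptors, and the family is known for acting on osteoblast differentiation and on the support that osteoblasts give to osteoclasts.

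Promoter sequences of the 3 ligand genes and of Socs3 are shown because these ligands had the largest fold changes of the family and Socs3 is its classic STAT3 target. Each is the 250 bases before a RefSeq transcription start in GRCm38.p6, 5′ to 3′ on the strand of the gene, with matches to 3 searched motifs in capitals. The motifs were TGANTCA for AP-1, TTCNNNGAA for STAT factors and, for NF-kB, GGG and TTTCC spaced by 2 bases, each looked for on both strands. The windows are chr5:30012864-30013113 on the plus strand for Il6, chr7:4778142-4778391 on the minus strand for Il11 (the second of its 2 annotated starts in the table), chr11:4257318-4257567 on the plus strand for Lif and chr11:117969367-117969616 on the minus strand for Socs3.
Il6: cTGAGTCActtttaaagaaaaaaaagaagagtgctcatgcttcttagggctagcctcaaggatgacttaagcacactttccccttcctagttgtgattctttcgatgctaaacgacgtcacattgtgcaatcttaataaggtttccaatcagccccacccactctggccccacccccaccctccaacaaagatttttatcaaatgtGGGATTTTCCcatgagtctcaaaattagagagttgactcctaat
Il11: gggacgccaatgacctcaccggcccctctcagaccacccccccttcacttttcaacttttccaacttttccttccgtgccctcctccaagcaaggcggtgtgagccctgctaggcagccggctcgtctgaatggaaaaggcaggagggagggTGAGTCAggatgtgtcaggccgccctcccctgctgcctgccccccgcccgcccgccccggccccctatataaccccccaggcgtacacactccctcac
Lif: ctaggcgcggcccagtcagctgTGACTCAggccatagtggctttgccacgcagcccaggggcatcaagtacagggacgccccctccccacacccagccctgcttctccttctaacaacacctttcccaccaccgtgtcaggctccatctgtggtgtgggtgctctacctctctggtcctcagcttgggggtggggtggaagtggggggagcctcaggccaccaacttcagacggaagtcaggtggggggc
Socs3: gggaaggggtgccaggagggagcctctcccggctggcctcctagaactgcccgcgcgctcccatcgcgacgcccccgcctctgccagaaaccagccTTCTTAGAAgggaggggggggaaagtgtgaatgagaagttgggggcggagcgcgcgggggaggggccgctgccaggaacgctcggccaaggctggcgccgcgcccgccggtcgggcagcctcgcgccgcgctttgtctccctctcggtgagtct
The first capitals of Il6, and those of Il11 and Lif, mark matches to the AP-1 motif. They begin at positions -249, -98 and -228 from the start, the last base before it being -1, and no match overlaps another. The second run of capitals in Il6, GGGATTTTCC at -44, is a match to the NF-kB motif. The capitals of Socs3, TTCTTAGAA at -154, are a match to the STAT motif. Of the 13 windows of the 10 genes, 3 matched the AP-1 motif, 1 for each ligand gene, while 6.75% of all 32851 promoter windows did. The other Il11 window, not printed, had 0 matches to it. The STAT motif was matched by 1 of the 13 windows and by 7.02% of all, and the NF-kB motif by 1 and by 1.41%. Such matches describe these letters only.

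Library totals ran from 14837272 to 16380767 counts in the libraries labelled knockout and from 13591925 to 20993962 in those labelled wildtype. Gene IDs with a count numbered 18024, 17725 and 17068 in knockout 1, 2 and 3. In wildtype 1, 2 and 3 they numbered 17947, 14608 and 15712. Wildtype 2 and 3 thus detected the fewest genes, which limits the reading of low counts in them. Cdc73 itself, counted over the whole gene, measured 14.0, 14.7 and 14.4 CPM (reads of a gene relative to its library total, TMM-scaled) in knockout 1, 2 and 3, and 20.5, 12.8 and 21.7 CPM in wildtype 1, 2 and 3. Its log2 fold change of knockout over wildtype was -0.36 ± 0.22 (standard error, edgeR adjusted p = 0.428). Wildtype 2 lay below every knockout library, so the level of this gene does not check the labels. Directions are given by label throughout. Wildtype 1 stood nearer to the knockout libraries (Pearson's r of 0.973 to 0.983 across the 13505 tested genes, log2 CPM, genes not being independent) than to wildtype 2 and 3 (0.940 and 0.945). All 10 osteoblast markers were detected in all 6 libraries. Their summed level, to which the collagen genes Col1a1 and Col1a2 contribute most, ran from 236964 to 350649 CPM in knockout libraries and from 281042 to 306570 CPM in wildtype libraries.

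Of all tested genes, 49.3% had a positive log2 fold change of knockout over wildtype. Across the family, 9 of 10 genes had a positive and 1, Lifr, a negative fold change. None passed the threshold of 0.05 in the quasi-likelihood test of edgeR, adjusted over all genes after Benjamini and Hochberg, where 0% of the 13505 genes tested were called. The adjusted p of the members ran from 0.281 for Il6ra to 0.794 for Socs3. Before adjustment, 8 of 10 members were higher and 0 lower at p under 0.05, while 8.26% of all tested genes were higher and 6.35% lower. That count of 8 depended on single libraries and on the scaling: it was 0 without knockout 1, 3 without knockout 2 and 5 without wildtype 3, and with library size alone 4 members were higher and 1 lower. Over all tested genes 1116 were higher with all libraries, and 550, 537 and 826 without knockout 1, knockout 2 and wildtype 3. With library size alone 475 of all tested genes were higher and 2487 lower. The groups were separate in 5 of 10 members with the knockout libraries on top and in 0 with them at the bottom, against 10.6% and 9.82% of all tested genes. The median log2 fold change of the members was 0.75 and that of all tested genes -0.01. Il11 entered the test only through the knockout libraries, none of the 3 wildtype libraries reaching the filter of about 0.655 CPM, so its difference was in part set by the filter. Without it the counts were 7 of 9 at an unadjusted p under 0.05 and 4 of 9 with separate groups, with a median of 0.56. DESeq2 called 0 members, where it called 1.61% of genes higher and 0.23% lower, and the edgeR fit without wildtype 1 also called 0, where 2.13% were higher and 0.832% lower. Without the filter 0 members were called, with 0.121% of genes higher and 0% lower. A fit that took the replicate numbers as a block called 2 members, Il6 and Lif, both higher, with 1.67% of genes called higher and 0.074% lower. In bulk RNA, fewer cells of a type and less RNA per cell cannot be told apart.

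**Figure D1:**
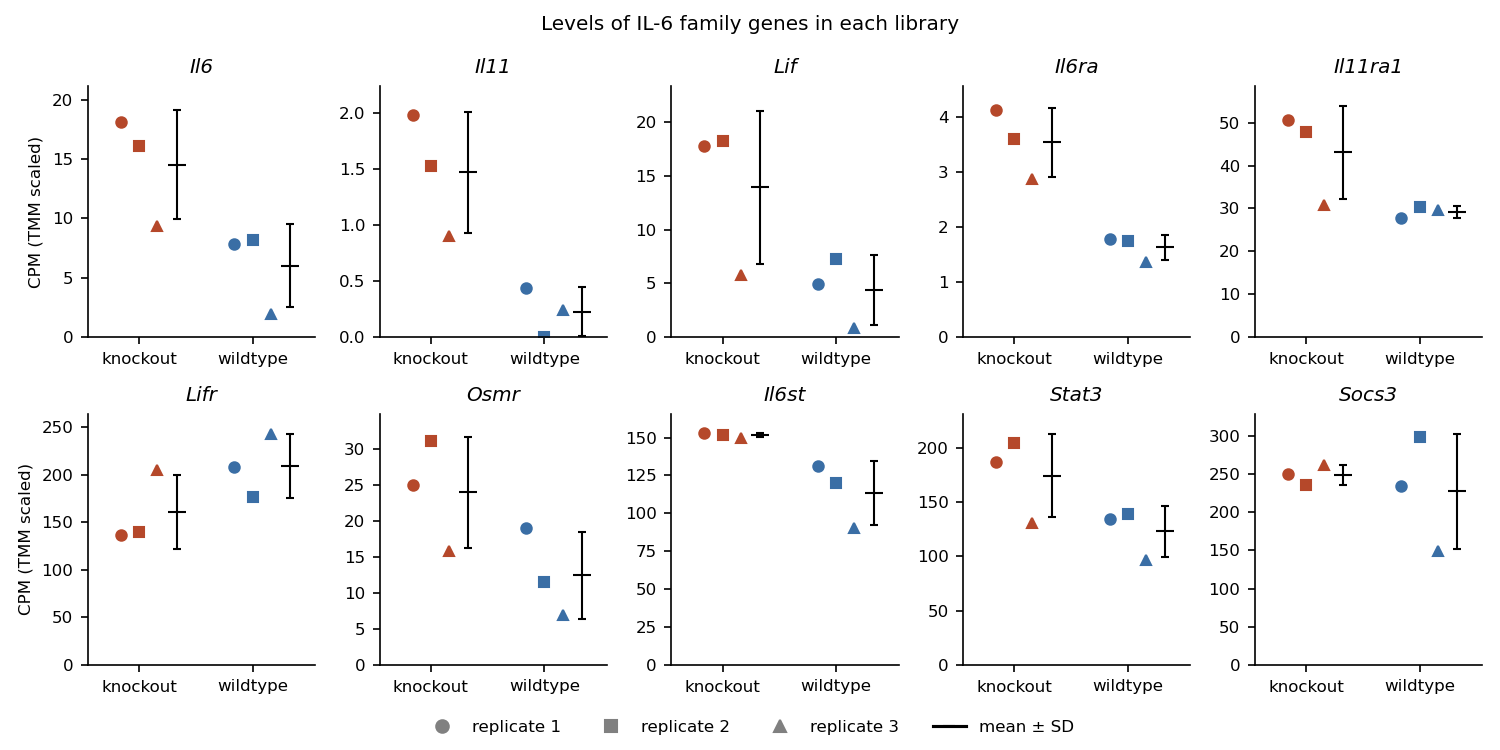
Level of each family gene in CPM after TMM scaling (vertical axes, from 0) in the libraries labelled knockout (left, red) and wildtype (right, blue). Marker shapes give the replicate number, bars the mean ± SD of 3 libraries. Il6, Il11, Il6ra, Il11ra1 and Il6st have separate groups, and Il6 and Lif are lowest in replicate 3 of each group.

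The ligand genes showed the widest differences of the family, and wildtype libraries differed 4.17-fold among themselves for Il6 and 8.15-fold for Lif. Gene positions are those of RefSeq in GRCm38 (mm10), the build of the counts. Il6 (gene ID 16193, chromosome 5, 30013114 to 30019975), the founding cytokine of the family, measured 18.1, 16.1 and 9.37 CPM in knockout 1, 2 and 3, against 7.86, 8.20 and 1.97 CPM in wildtype 1, 2 and 3. All knockout values lay above all wildtype values, although the lowest knockout library was only 1.14 times the highest wildtype library. By library totals alone knockout 3 (114 counts of 14958335) fell below wildtype 2 (118 of 13591925). Knockout libraries averaged 14.5 ± 4.57 CPM and wildtype libraries 6.01 ± 3.50 CPM (SD, n = 3 each), for a log2 fold change of 1.27 ± 0.46 (standard error, edgeR adjusted p = 0.302). Without wildtype 3 it was 0.85, and against wildtype 1 alone, assumed to vary like the knockout libraries, 0.88.

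Lif (gene ID 16878, chromosome 11, 4257568 to 4272514), named for its inhibition of leukaemia cells and active on osteoblasts and osteoclasts alike, measured 17.8, 18.3 and 5.75 CPM in knockout libraries, against 4.98, 7.30 and 0.895 CPM in wildtype libraries. Knockout 3 lay below wildtype 2, so the groups overlapped, and the lowest library of each genotype was again replicate 3. Knockout libraries averaged 13.9 ± 7.09 CPM and wildtype libraries 4.39 ± 3.24 CPM (SD, n = 3 each), for a log2 fold change of 1.68 ± 0.62 (edgeR adjusted p = 0.302). The 15 counts of wildtype 3 and the 70 of knockout 3 set the precision of the lowest values.

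Il11 (gene ID 16156, chromosome 7, 4772373 to 4782907), a cytokine made by mesenchymal cells, was the scarcest ligand of the list. It had 33, 22 and 11 counts in knockout libraries and 10, 0 and 4 counts in wildtype libraries. These are 1.98, 1.53 and 0.904 CPM in knockout 1, 2 and 3, against 0.437, 0 and 0.239 CPM in wildtype 1, 2 and 3. The groups did not overlap, and a count of 0 in wildtype 2 allows a level of up to 0.209 CPM (3 counts, counting error only). Wildtype 2 also had the fewest gene IDs with a count (14608), which this bound does not take into account. The log2 fold change was 2.58 ± 0.82 (edgeR adjusted p = 0.283), a value that depends on the prior count at such depth. It was 3.45 without wildtype 1 (edgeR adjusted p = 0.0801) and 1.74 against wildtype 1 alone.

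The other ligands of the family were scarce, with the tested ones averaging under 3 CPM in either group. Of 8 further ligand genes 3 passed the filter on low counts, and 0 of those 3 were called. Osm, the gene for oncostatin M, which blood cells make, measured 2.40, 1.11 and 0.411 CPM in knockout libraries and 0.742, 2.99 and 0.179 CPM in wildtype libraries, with fully mixed groups (log2 fold change 0.06 ± 0.90). Clcf1, a ligand of the ciliary neurotrophic factor receptor, averaged 2.90 ± 0.661 CPM in knockout and 2.34 ± 0.350 CPM in wildtype libraries (SD, n = 3 each), and Ctf1, the cardiotrophin gene, 1.78 ± 0.922 and 1.46 ± 0.300 CPM (SD, n = 3 each). Cntf, Il27, Ebi3 and Il31 were among those too low to test, with Il31 at 0 counts in all 6 libraries, which allows up to 3 counts in each.

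Among the receptor chains that recognise a ligand, Il6ra, Il11ra1 and Osmr were higher on average in the knockout libraries and Lifr was lower. Il6ra (gene ID 16194, chromosome 3, 89869324 to 89913196), the IL-6 binding chain, measured 4.13, 3.61 and 2.88 CPM in knockout libraries, against 1.79, 1.74 and 1.37 CPM in wildtype libraries. It had the clearest gap of the receptors, the lowest knockout library standing 1.61 times above the highest wildtype library, on 35 to 69 counts in knockout and 23 to 41 in wildtype libraries. The log2 fold change was 1.11 ± 0.35 (edgeR adjusted p = 0.281), 1.17 without wildtype 1 and 0.98 against wildtype 1 alone. Of its exons, 242 bases are shared with the gene model Gm42809 on the opposite strand.

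Il11ra1 (gene ID 16157, chromosome 4, 41760443 to 41769473), the IL-11 binding chain, measured 50.7, 47.9 and 30.7 CPM in knockout libraries, against 27.7, 30.4 and 29.7 CPM in wildtype libraries. Knockout 3 lay within 1.01-fold of the highest wildtype library, so the higher mean rested on knockout 1 and 2. By library totals alone knockout 3 (374 counts of 14958335) fell below wildtype 2 (437 of 13591925), and the groups overlapped. The log2 fold change was 0.56 ± 0.20 (edgeR adjusted p = 0.301). Il11ra2, a near-identical copy that can share reads with Il11ra1, measured 3.00, 2.92 and 2.88 CPM in knockout libraries, against 1.53, 2.02 and 2.27 CPM in wildtype libraries, and how the counting divided such reads is not given in the sources used here.

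Osmr (gene ID 18414, chromosome 15, 6813568 to 6874968), the oncostatin M receptor chain, measured 25.0, 31.2 and 15.9 CPM in knockout libraries, against 19.0, 11.5 and 6.98 CPM in wildtype libraries. Knockout 3 lay below wildtype 1 and the groups overlapped. The log2 fold change was 0.94 ± 0.36 (edgeR adjusted p = 0.308), and it ranged with the controls used, from 1.36 without wildtype 1 to 0.33 against wildtype 1 alone.

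Lifr (gene ID 16880, chromosome 15, 7090610 to 7197489), the LIF receptor chain, ran the other way, at 137, 140 and 205 CPM in knockout libraries against 208, 176 and 243 CPM in wildtype libraries. Knockout 1 and 2 were the lowest of the 6 libraries, while knockout 3 lay between wildtype 2 and wildtype 1. The log2 fold change was -0.38 ± 0.21 (edgeR adjusted p = 0.395), and it was -0.40 without wildtype 1, -0.38 against wildtype 1 alone and -0.61 with library size alone, a scaling that moved the median of all genes to -0.21. Knockout 1 and 2, the libraries with the highest Lif, thus had the lowest Lifr, and wildtype 3, with the lowest Lif, had the highest.

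The shared chain and Stat3 had differences of a size like those of Il11ra1 and Lifr, and Socs3 had the smallest of the family. Il6st (gene ID 16195, chromosome 13, 112464070 to 112506860) measured 153, 152 and 150 CPM in knockout libraries, against 131, 120 and 90.2 CPM in wildtype libraries. After TMM scaling its knockout values were the tightest of the family (152 ± 1.78 CPM, against 114 ± 21.4 CPM in wildtype, SD, n = 3 each). The groups were separate, and the log2 fold change was 0.41 ± 0.18 (edgeR adjusted p = 0.331). It was 0.20 against wildtype 1 alone and 0.21 with library size alone. By library totals alone knockout 3 (1821 counts of 14958335) fell below wildtype 1 (3010 of 20993962). The tightness and the separation thus depended on the scaling.

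Stat3 (gene ID 20848, chromosome 11, 100886806 to 100939594) measured 187, 204 and 131 CPM in knockout libraries, against 134, 139 and 96.2 CPM in wildtype libraries, with knockout 3 inside the wildtype range. The log2 fold change was 0.50 ± 0.22 (edgeR adjusted p = 0.338). Its annotated exons share 72 bases with those of Stat5a on the opposite strand, and strand use in counting is not given in the sources used here.

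Socs3 (gene ID 12702, chromosome 11, 117966079 to 117970336) measured 250, 236 and 262 CPM in knockout libraries, against 235, 299 and 149 CPM in wildtype libraries. The knockout values lay inside the wildtype range, and the log2 fold change of 0.13 ± 0.24 (edgeR adjusted p = 0.794) became -0.07 with library size alone and -0.11 without wildtype 3. Wildtype 2 held the most and wildtype 3 the least, so the spread of this gene lay within wildtype (2.00-fold) and not within knockout libraries (1.11-fold).

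**Figure D2:**
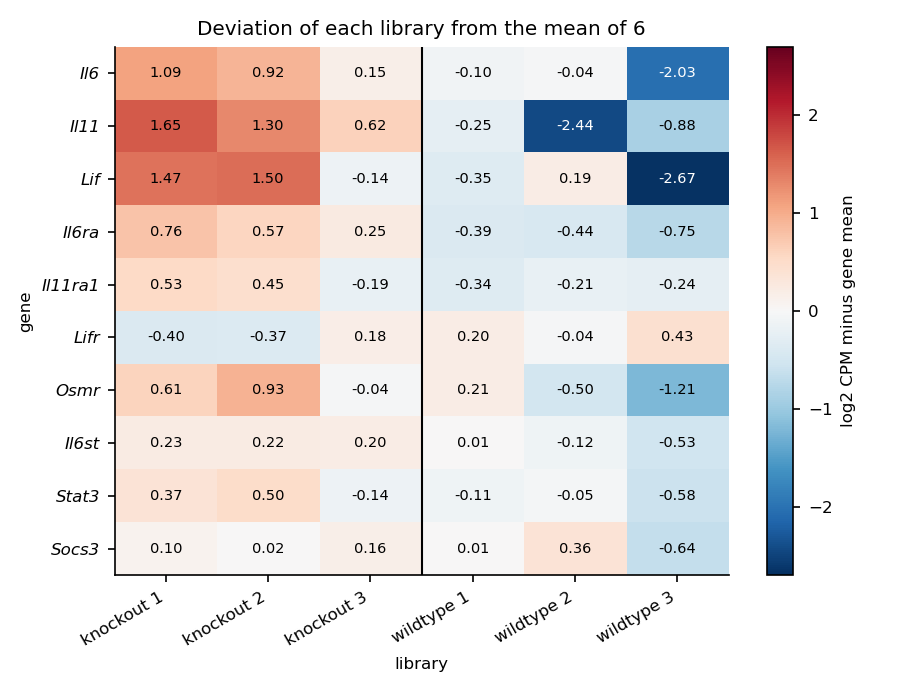
Log2 CPM of each family gene (rows) in each library (columns, knockout left of wildtype) minus the mean of that gene over the 6 libraries. Red is above and blue below the mean of the gene. Il6, Lif and Osmr are high in knockout 1 and 2 and low in wildtype 3, while Lifr shows the opposite sign in these libraries.

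Library by library, the family did not follow genotype alone. In 8 of 10 members the lowest knockout library was knockout 3, in 7 of 10 the lowest wildtype library was wildtype 3, and in 6 members both held. For Il6st the knockout libraries differed only 1.02-fold after TMM scaling. How often these orders hold over all tested genes was not counted. The range over the 6 libraries was 3.12 for Il6, 4.17 for Lif and 2.14 for Osmr on the log2 CPM scale, against 0.76 for Il6st, 0.83 for Lifr and 0.87 for Il11ra1. Profiles of Il6 and Lif differed by a root mean square of 0.43 log2 units after centring, those of Il6 and Osmr by 0.46, and those of Il6 and Lifr by 1.29.

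Profiles were compared with those of 9417 genes averaging 5 CPM or more. The profile nearest to that of Il6 over the 6 libraries was that of C5ar1, a receptor for complement C5a (root mean square difference of 0.09 log2 units), followed by the small GTPase gene Gem (0.11) and Lonrf3 (0.12). C5ar1 measured 9.95, 8.88 and 5.51 CPM in knockout libraries and 3.89, 4.24 and 1.13 CPM in wildtype libraries. Nearest to Il6st were Aplp1 (0.03), Itsn1 (0.04) and Adam17 (0.04), the last encoding the protease that sheds the IL-6 receptor from cells. Nearest to Socs3 were Hacd2 (0.05), Lins1 (0.05) and Nup188 (0.06).

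Levels of different genes were compared per kilobase of annotated exon. In the knockout libraries the order of mean levels, in CPM per kilobase, was Socs3 (86.2), Stat3 (18.2), Lifr (14.9), Il6st (13.7), Il11ra1 (9.64), Il6 (5.98), Lif (3.20), Osmr (1.98), Il11 (0.706) and Il6ra (0.410). In the wildtype libraries it was Socs3 (78.7), Lifr (19.4), Stat3 (12.9), Il6st (10.3), Il11ra1 (6.54), Il6 (2.48), Osmr (1.03), Lif (1.01), Il6ra (0.189) and Il11 (0.108). Socs3 stood apart from its neighbour in both groups. Of the other neighbours in these orders, the ranges of Il6st and Il11ra1 and of Osmr and Il11 did not overlap in knockout libraries, nor did those of Lifr and Stat3, Il6st and Il11ra1, and Il11ra1 and Il6 in wildtype libraries. The message for gp130 was thus far more abundant than that for the IL-6 binding chain in every library.

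Ratios within a library do not depend on the scaling between libraries. The ratio of Lifr to Il6st, per kilobase, was 0.920, 0.942 and 1.41 in knockout 1, 2 and 3, against 1.63, 1.51 and 2.77 in wildtype 1, 2 and 3. All knockout values lay below all wildtype values, with a difference of -0.83 in mean log2 ratio. The ratio of Il6ra to Il6st was 0.0347, 0.0304 and 0.0247 in knockout libraries, against 0.0175, 0.0185 and 0.0195 in wildtype libraries, again without overlap and with a difference of 0.68. For each of the 2 the two-sided exact permutation test gave p = 0.1, the smallest p that 3 libraries against 3 allow, and an adjusted p of 0.35 over the 7 ratios computed, which were chosen after the values were seen. The ratio of Osmr to Lifr, the chains that oncostatin M and LIF engage beside gp130, was 0.163, 0.199 and 0.069 in knockout libraries and 0.0811, 0.0583 and 0.0256 in wildtype libraries, with overlap at knockout 3 (exact permutation p = 0.2). The ratio of Socs3 to Stat3 was 4.42, 3.82 and 6.58 in knockout libraries and 5.80, 7.06 and 5.11 in wildtype libraries, with mixed groups (exact permutation p = 0.3).

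**Figure D3:**
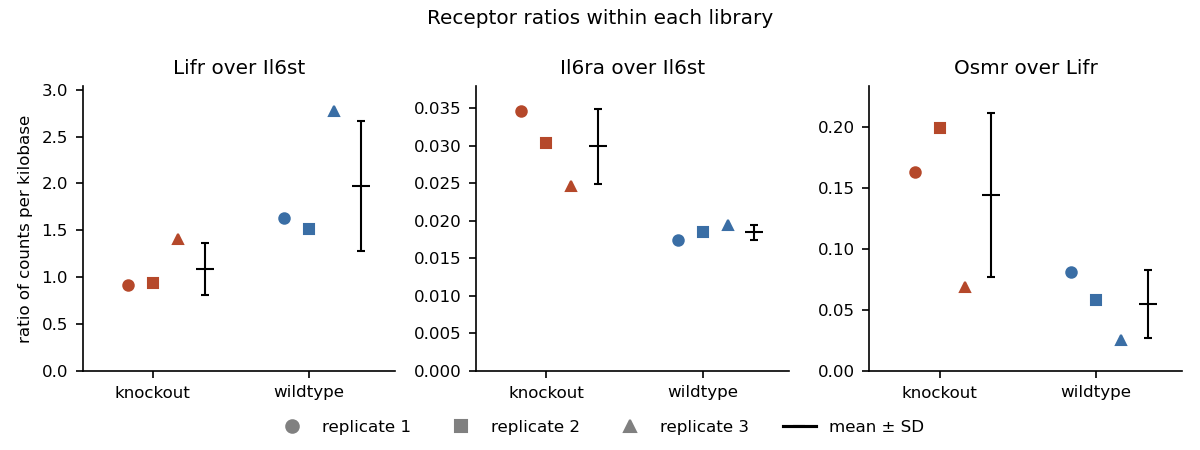
Ratios of receptor messages, each as counts per kilobase of exon, within the libraries labelled knockout (left, red) and wildtype (right, blue). Marker shapes give the replicate number and bars the mean ± SD of 3 libraries. Lifr over Il6st is at most 1.41 in knockout and at least 1.51 in wildtype libraries, Il6ra over Il6st is at least 0.0247 in knockout and at most 0.0195 in wildtype libraries, and Osmr over Lifr overlaps.

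The rest of the pathway was followed through 5 lists with 52 genes, of which 44 passed the filter on low counts. In edgeR's test 0 of the 44 were called after adjustment, 7 were higher and 0 lower with p under 0.05 before adjustment, and 13 had separate groups with the knockout libraries on top, against 8.26% and 10.6% of all genes. Their median log2 fold change was 0.30, against -0.01 for all tested genes. Separation of groups was read after TMM scaling here too. By library totals alone the groups of Cntfr, Adam17, Jak1, Socs1, Socs7, Pim1, Lcn2, Fosl2 and Steap4 overlapped.

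The other receptor genes included Cntfr, the binding chain for ciliary neurotrophic factor, at 10.1, 11.5 and 7.07 CPM in knockout libraries against 6.25, 2.29 and 2.27 CPM in wildtype libraries. The groups were separate (1.38 ± 0.40, edgeR adjusted p = 0.277), and the value was 2.05 without wildtype 1 (edgeR adjusted p = 0.0301) and 0.61 against wildtype 1 alone. Adam17 averaged 40.0 ± 1.28 CPM in knockout and 31.1 ± 5.75 CPM in wildtype libraries (SD, n = 3 each), with separate groups, and Adam10, the related protease, 57.2 ± 9.90 and 57.5 ± 8.44 CPM.

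Of 10 kinases and signal transducers 7 had a positive log2 fold change and 3 a negative (median 0.09). Jak1, the kinase on which gp130 signalling chiefly depends, measured 156, 144 and 132 CPM in knockout libraries, against 103, 113 and 88.3 CPM in wildtype libraries. It was the only gene of that list with separate groups (0.50 ± 0.16, edgeR adjusted p = 0.283) and measured 0.47 against wildtype 1 alone. Jak2 (0.22 ± 0.16) and the phosphatase gene Ptpn11 (0.18 ± 0.17) had overlapping groups.

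Of 11 negative regulators besides Socs3, 10 had a positive fold change (median 0.28) and 0 an unadjusted p under 0.05. Socs1, a relative of Socs3 that inhibits Janus kinases directly, averaged 25.1 ± 2.41 CPM in knockout and 18.1 ± 5.32 CPM in wildtype libraries (SD, n = 3 each), with separate groups (0.47 ± 0.23). Socs7 (0.26 ± 0.16) was separate too, while Socs6 (0.39 ± 0.24) and Pias1 (0.35 ± 0.19) overlapped.

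Genes known to respond to STAT3 in various cells had a median of 0.56, with 13 of 16 positive and 5 higher at an unadjusted p under 0.05. Pim1, a survival kinase gene, measured 121, 111 and 72.0 CPM in knockout libraries, against 54.2, 62.4 and 17.7 CPM in wildtype libraries, low in replicate 3 of each group as Il6 and Lif were (1.18 ± 0.40, edgeR adjusted p = 0.291). Lcn2, an acute phase gene that neutrophils also express, measured 11.8, 5.62 and 3.45 CPM in knockout libraries, against 1.53, 0.626 and 2.98 CPM in wildtype libraries (2.02 ± 0.58, edgeR adjusted p = 0.273). DESeq2 called Lcn2 (adjusted p = 0.0333), and without knockout 1 its log2 fold change was 1.39 in edgeR. Fosl2, an AP-1 subunit gene (0.85 ± 0.35), and Steap4, a metalloreductase gene (0.75 ± 0.26), were separate as well, with 0.31 for Fosl2 and 0.34 for Steap4 against wildtype 1 alone.

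**Figure D4:**
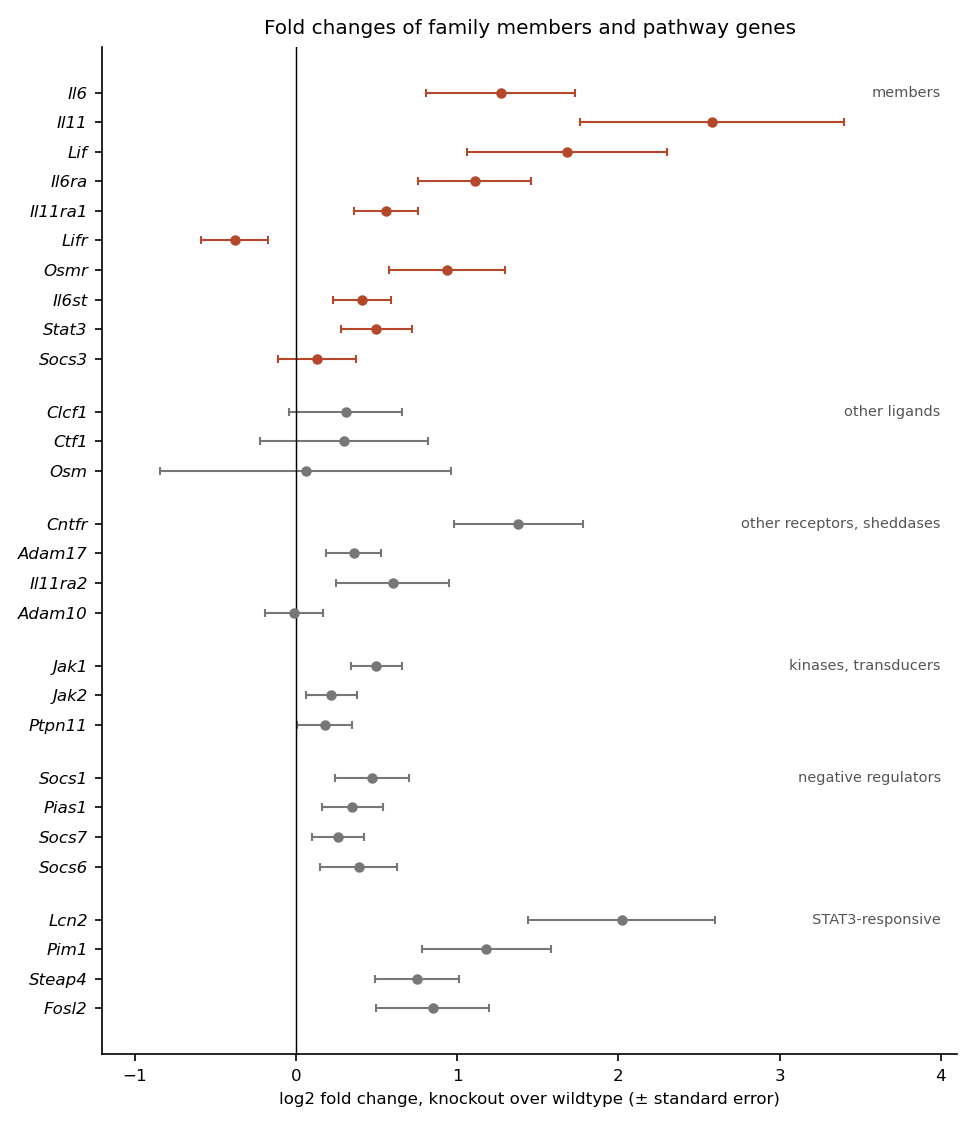
Log2 fold change of knockout over wildtype (horizontal axis, bars ± standard error from edgeR) for the 10 family genes (red) and for the named genes of 5 pathway lists (grey). Il11 has the highest value (2.58) and Lifr the lowest (-0.38) of the family, and no gene shown passed an adjusted p of 0.05.

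Markers of macrophages, endothelial cells, chondrocytes and neutrophils ran in the same direction as most of the family, while those of osteoblasts did not. Of 10 osteoblast genes 7 had a negative and 3 a positive log2 fold change (median -0.14), and 0 were called. Sp7, a transcription factor gene of the osteoblast lineage, measured 127, 131 and 181 CPM in knockout libraries, against 208, 222 and 244 CPM in wildtype libraries, with all knockout values below (-0.62 ± 0.19, edgeR adjusted p = 0.277). DESeq2 called Sp7 (adjusted p = 0.0496), and it was negative under every alternative, from -0.84 with library size alone to -0.52 against wildtype 1 alone. Pth1r, the parathyroid hormone receptor gene, had overlapping groups (-0.51 ± 0.22, edgeR adjusted p = 0.331). Dmp1 ran the other way, at 287, 258 and 315 CPM in knockout libraries against 223, 195 and 224 CPM in wildtype libraries. All its knockout values lay above all wildtype values (0.42 ± 0.16, edgeR adjusted p = 0.312). The summed level of 15 macrophage genes was 448, 330 and 188 CPM in knockout 1, 2 and 3, against 161, 163 and 111 CPM in wildtype 1, 2 and 3. This was the same order of the 6 libraries as for Il6, with wildtype 1 and 2 nearly level. The summed STAT3-responsive genes had this order too, at 2524, 2473 and 2128 CPM in knockout and 1839, 2007 and 1209 CPM in wildtype libraries. Junb, which is also on the immediate-early list, contributed most to that sum. These orders hold after TMM scaling, and how often they hold over all tested genes was not counted. All 15 macrophage genes had a positive log2 fold change (median 1.18). For 12 endothelial genes the sum was 305, 276 and 200 CPM in knockout libraries, against 198, 126 and 101 CPM in wildtype libraries (12 of 12 positive, median 1.24). For 13 chondrocyte genes it was 25986, 15251 and 11641 CPM in knockout libraries, against 9885, 4046 and 3527 CPM in wildtype libraries (13 of 13 positive, median 2.11). For 9 neutrophil genes it was 188, 78.9 and 58.3 CPM in knockout libraries, against 26.5, 21.3 and 56.9 CPM in wildtype libraries (9 of 9 positive, median 1.56). Of these 4 lists only Elane, a neutrophil gene, was at 0 counts in any library (wildtype 2), while 8 lymphocyte genes summed to between 1.15 and 5.51 CPM in knockout and between 0.209 and 1.35 CPM in wildtype libraries, with 0 to 4 of the 8 at 0 counts in knockout and 3 to 7 in wildtype libraries. Macrophages, endothelial cells and chondrocytes also express members of the family, and the part of these cells in its levels was not tested.

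Immediate-early genes, which cell dissociation is known to induce and which include AP-1 subunits, were abundant in all libraries. The summed level of 14 of them was 6908, 6928 and 8366 CPM in knockout libraries, against 7241, 6448 and 4620 CPM in wildtype libraries, so wildtype 3 was lowest and the groups overlapped. Fold changes were positive for 13 of 14 (median 0.48), with Btg2, an antiproliferative gene, at 0.85 ± 0.23 (edgeR adjusted p = 0.273, and 0.0367 without wildtype 1) and Ier3, a survival gene, at 0.70 ± 0.28. Knockout 3, the lowest knockout library for Il6, Lif and Osmr, had the highest sum of these genes. Fos contributed most to that sum (1432, 1395 and 2108 CPM in knockout 1, 2 and 3), and not every gene of the list was highest in knockout 3. The part of immediate-early genes in the levels of the family was not tested.

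**Figure D5:**
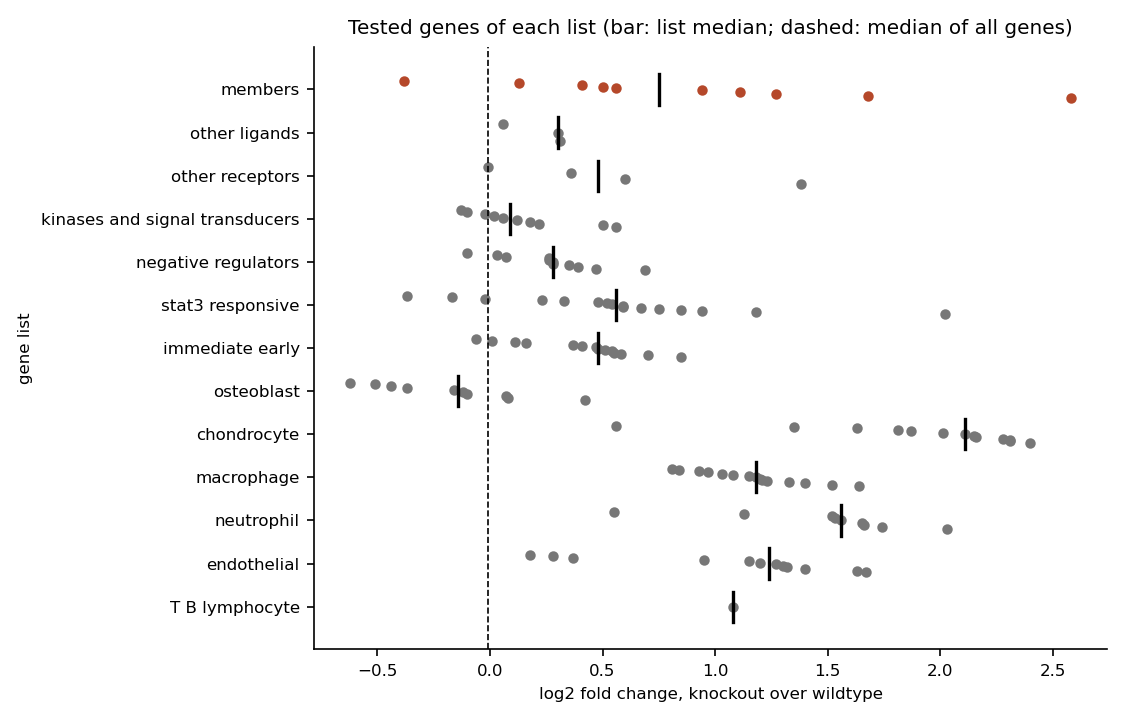
Log2 fold change of knockout over wildtype (horizontal axis) for every tested gene of the family (red) and of the 12 pathway and marker lists (grey), 1 list per row. Black bars are list medians and the dashed line is the median of all tested genes (-0.01). The family median is 0.75, or 0.56 without Il11, which equals that of the STAT3-responsive list, and both lie below the medians of the chondrocyte, macrophage, neutrophil and endothelial lists and the 1 lymphocyte gene tested.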

How the data were processed

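The authors deposited raw read counts per gene for 6 libraries, in whole numbers without normalization. Per the submitters' processing notes, CASAVA 1.7, Subread and featureCounts were used with mm10. The annotation, strand setting and RNA selection are not given in these sources. All columns were mapped by name, with 0 left over. RefSeq (GRCm38.p6) named 25275 gene IDs and GENCODE M21 a further 18. Exon and transcript lengths were taken from GENCODE M21, and gene positions and promoter windows from RefSeq, whose build is that of the counts.

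The members and lists were chosen with earlier results of these data known. The whole table was fitted with edgeR 4.0.16 in R 4.3.3 (filterByExpr, TMM factors of 0.813 to 1.09, two-sided quasi-likelihood test, Benjamini-Hochberg adjustment over 13505 genes), and checked on simulated data. Named genes were the 10 members, Cdc73, up to 4 genes of smallest p in each of the 5 pathway lists and the immediate-early list, and the 3 nearest profiles (log2 CPM, prior count 2) of Il6, Il6st and Socs3. Sp7, Pth1r, Dmp1 and Elane were picked with their values known. Some genes that this rule takes are not reported here. Ratios were tested in scipy 1.17.1. Alternatives used other scalings, filters, DESeq2 1.42.0, limma 3.58.1 voom, a replicate block, single libraries left out and wildtype 1 as the only control. Intervals and floors cover counting error only.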

Additional observations from a re-analysis of the deposited data

How the results depend on the processing

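Genes called over the whole table numbered 0 in the edgeR fit with all 6 libraries, with 1116 higher and 858 lower at p under 0.05 before adjustment, and 24 without the filter on low counts, 248 with DESeq2 and 236 with a replicate block. Leaving out a library gave 0 to 409 calls, the 409 arising without wildtype 1. Members called numbered 0 in that edgeR fit and under every alternative except the replicate block, which called 2, Il6 (1.42, adjusted p = 0.0292) and Lif (1.85, adjusted p = 0.0131), both higher, where 1.67% of all genes were called higher. Leaving out a library gave 0 to 0 members called. Numbers shared by libraries of both groups are not stated to mark a litter or day, and deviations of same-numbered libraries correlated at 0.115, -0.0743 and 0.222 across genes, so the numbers were not taken to pair them. Knockout 2 correlated best with wildtype 1 (0.347) and not with its own number.

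Directions of 9 of 10 members held under all alternatives that tested them (Il11 was not tested under the stricter filter). Socs3 became -0.07 with library size alone and -0.11 without wildtype 3. Among other named genes, with library size alone Osm became -0.08, Ptpn11 -0.02, Hacd2 -0.03, Lins1 -0.07 and Nup188 -0.13. Without wildtype 3 Osm became -0.47, Hacd2 -0.05, Lins1 -0.14 and Nup188 -0.20, and without wildtype 1 Osm became -0.25 and Adam10 0.09. Without knockout 1 Osm became -0.75 and Adam10 0.06, and without knockout 2 Ctf1 became -0.02 and Adam10 0.05. With wildtype 1 as the only control Jak2 became -0.01, Ptpn11 -0.05 and Nup188 -0.02. With 1 library left out in turn, the lowest and highest values were -0.11 and 0.36 for Socs3, -0.02 and 0.64 for Ctf1, -0.75 and 1.45 for Osm, -0.18 and 0.09 for Adam10, -0.05 and 0.42 for Hacd2, -0.14 and 0.36 for Lins1, and -0.20 and 0.32 for Nup188. The cause was not tested. Of 671 values over 42 named genes, 12 passed the threshold under an alternative. Besides Il6 and Lif, the block called Pim1 (1.33, adjusted p = 0.0227), Cntfr (1.51, 0.048), Btg2 (0.88, 0.0495), C5ar1 (1.51, 0.0379), Gem (1.38, 0.0274) and Lonrf3 (1.43, 0.0387), DESeq2 called Lcn2 and Btg2 (adjusted p = 0.0191), and edgeR without wildtype 1 called Cntfr and Btg2. The order of wildtype levels per kilobase held for all 10 members with the longest transcript as length and with library size alone. Depth limits Il11 most, at 0 to 33 counts.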
